A study of Drosophila melanogaster and Drosophila biarmipes with 20 samples.

Results

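Between 69% and 78% of pupal development, chromatin accessibility in the male wing of Drosophila melanogaster was compared in 2 libraries per stage. A region was called opened when both 78% libraries listed it and neither 69% library did, and closed in the reverse case. The regions were the 98646 merged intervals of the 10 D. melanogaster lists of the study, of which 74145 were listed by at least 1 of the 4 libraries and could be assessed. Of these, 2353 opened (3.17%) and 3228 closed (4.35%), and 31582 (42.6%) were listed by all 4 libraries. It covers the last interval of the time course.

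The study profiled open chromatin by ATAC-seq, an assay in which a transposase tags DNA that nucleosomes leave exposed, in wings of D. melanogaster and D. biarmipes at 5 stages from 0% to 78% of pupal development. Its stages were set by the expression of yellow. Each library of the 69% and 78% stages was made from 24 male pupal wings, cut before they were broken up, from flies kept at 20 °C under 12 h of light and 12 h of dark, and was amplified for 9 to 11 PCR cycles. The labels name no strain, mutation or treatment. Each library mixed all cell types of the dissected wings, and fewer cells with an open site cannot be told apart from less opening per cell. Gene positions are spans in dm6 without strand, exons or introns, and a region was assigned to the gene it overlapped or to the nearest within 10 kb.

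In this period the wing epidermis finishes secreting its cuticle and builds the pigments and cross-links that colour and harden it. Phenylalanine is hydroxylated to tyrosine, tyrosine to dopa, and dopa is decarboxylated to dopamine. Dopamine then goes to dark melanin or, once joined to beta-alanine or an acetyl group, to tan or colourless sclerotin. Pulses of the steroid ecdysone, read by a set of nuclear receptors, time these steps.

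The 4 libraries held 56282342 to 107196533 tags and listed 68580 to 80702 regions. The 69% libraries listed 72773 and 75073 regions and the 78% libraries 68580 and 80702, so the stages overlapped (73923 ± 1626 against 74641 ± 8572, SD, n = 2 each, two-sided exact permutation p = 1). The smallest p that 2 against 2 libraries allow is 0.333, and single regions were called by the rule alone and carry no p-value. The share of tags inside listed regions was 46.3% and 46.9% at 69% and 37.5% and 39.2% at 78%, and the shallowest library was replicate 1 at 78%. All 4 lists were made with short fragment lengths, of 52 to 58 bp. The wing selector genes vg, ap, nub and sd were listed in all 4 libraries, vg with 4444 and 4653 bp listed at 69% and 4269 and 4869 bp at 78%.

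Enzymes that make dopamine gained open chromatin, and among the named genes ple gained the largest share of its length. At ple, which encodes tyrosine hydroxylase, the enzyme that turns tyrosine into dopa (3L, 6713356 to 6719525, dm6), listed regions covered 10.1% and 11.0% of the gene at 69% and 74.5% and 97.7% at 78%. The gene was thus covered over most of its length in both 78% libraries, and the stages did not overlap. Replicate 1 at 78% had the fewest tags and the lowest tag threshold of the caller, 70 against 103 to 121 in the other libraries compared. The part of depth was not tested. Earlier libraries had covered 8.83% and 18.7% of it at 0%, 10.3% and 10.8% at 48%, and 19.2% and 20.5% at 60%. Across the 11 regions assigned to ple the listed length was 2479 and 2520 bp at 69% and 7910 and 10644 bp at 78%, a ratio of means of 3.71. Of these regions 5 opened and none closed. The largest single gain was in a region that was listed at both stages and therefore not called, from 6714760 to 6718421, with 303 and 291 bp listed at 69% and 3162 and 3662 bp at 78%. The ple regions that opened included 3 in succession, from 6712725 to 6714741. The widest of those, from 6713052 to 6714026, had no listed base at 69% and 328 and 975 bp at 78%.

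Ddc, dopa decarboxylase, the next enzyme, was covered further at each stage from 60% on (2L, 19116483 to 19120306). Listed regions covered 11.7% and 12.6% of the gene at 60%, 28.8% and 23.6% at 69%, and 54.1% and 51.0% at 78%. Both values of each stage lay above both of the stage before. Of its 7 assessed regions 4 opened and none closed, and none of the 4 had been listed in any library before 78%. The longest of them, from 19117371 to 19117760, had 248 and 294 bp listed at 78%. Hn (Henna), phenylalanine hydroxylase, at the head of the pathway, opened at 2 of 4 regions, from 7762616 to 7762917 and from 7762968 to 7763103 on 3L. Listed regions covered 3.28% and 1.51% of Hn at 69% and 12.4% and 16.7% at 78%, and at most 1.18% in any earlier library. At amd, a neighbour and relative of Ddc that is needed for cuticle, 1 of 4 regions opened, but the whole listed length was 1859 and 1642 bp at 69% and 1668 and 1696 bp at 78%, and the stages overlapped.

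**Figure D1:**
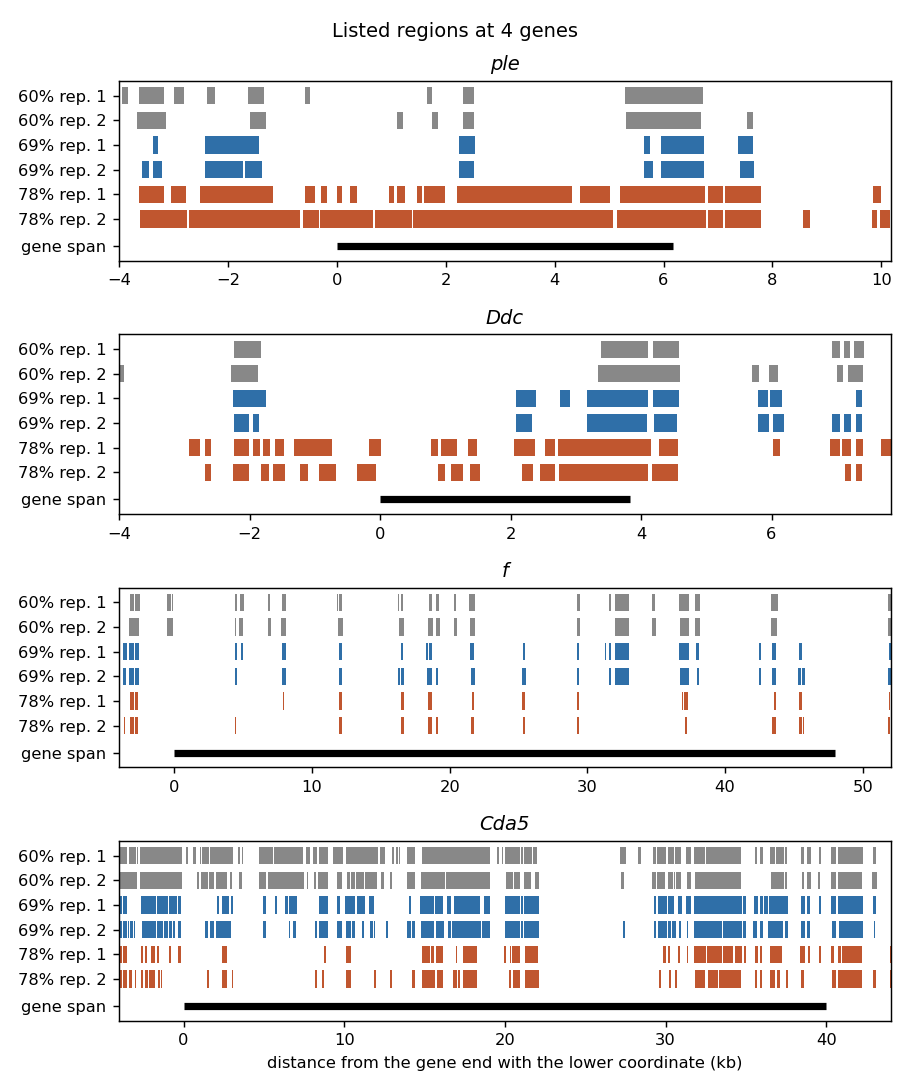
Listed regions (bars) in the 2 libraries of 60% (grey), 69% (blue) and 78% (orange) at ple, Ddc, f and Cda5, by distance in kb from the gene end with the lower coordinate; the black line is the gene span. At ple and Ddc the 78% libraries list long stretches that the others do not, and at f and Cda5 they list less than both 69% libraries.

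At 3 named genes that act after dopamine less was listed at 78%. Of these, e and speck were named for their closed regions and y by rule. They do not stand for all genes after dopamine, and the others are not described here. Ebony, encoded by e, joins dopamine to beta-alanine and so diverts it to tan sclerotin. Listed regions covered 6.50% and 7.15% of e at 0%, 21.8% and 18.1% at 60%, 51.1% and 48.4% at 69%, and 23.2% and 30.3% at 78%. Coverage of e was thus highest at 69% of the 5 stages, and the 78% libraries lay below both 69% libraries. Of 11 assessed e regions 2 closed and none opened, and listed length was 4688 and 4659 bp at 69% against 2562 and 3091 bp at 78%. At speck, the arylalkylamine N-acetyltransferase that acetylates dopamine, 3 of 12 regions closed and listed length was 2939 and 2261 bp at 69% against 1184 and 1868 bp at 78%. The gene y (yellow), whose product is needed for black melanin, closed at 1 of its 2 assessed regions, from 356175 to 356961 on X, with 167 and 308 bp listed at 69% and none at 78%. Over all regions of y the listed length was 623 and 919 bp at 69% and 416 and 436 bp at 78%. These lengths were small beside the 72.0% and 85.4% of the gene that the 48% libraries covered. Of all genes on X, where y lies, 45.4% were shorter at 78%, with a median ratio of 0.793.

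Over the whole list of 29 melanin, sclerotin and yellow family genes, 13 of 136 assessed regions opened (9.56%) and 9 closed (6.62%), against 3.09% and 4.41% of the regions of all genes. The opened regions belonged to 5 genes, ple (5 regions), Ddc (4), Hn, amd and yellow-g, and neighbouring regions of a gene are not independent. The closed ones belonged to 6, e, speck, y, PPO1, yellow-e2 and yellow-g2. Of the 29 genes, 6 (20.7%) had a longer listed length in both 78% libraries than in both 69% libraries and 7 (24.1%) a shorter one. Both scales, bases and share of the library's total listed length, had to give that direction. For all 11682 genes with an assessed region these shares were 12.2% longer and 19.7% shorter. The list therefore showed no common direction, and its median ratio of listed length, 0.910, lay close to that of all genes, 0.936. The list was drawn up with earlier results on these libraries known.

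**Figure D2:**
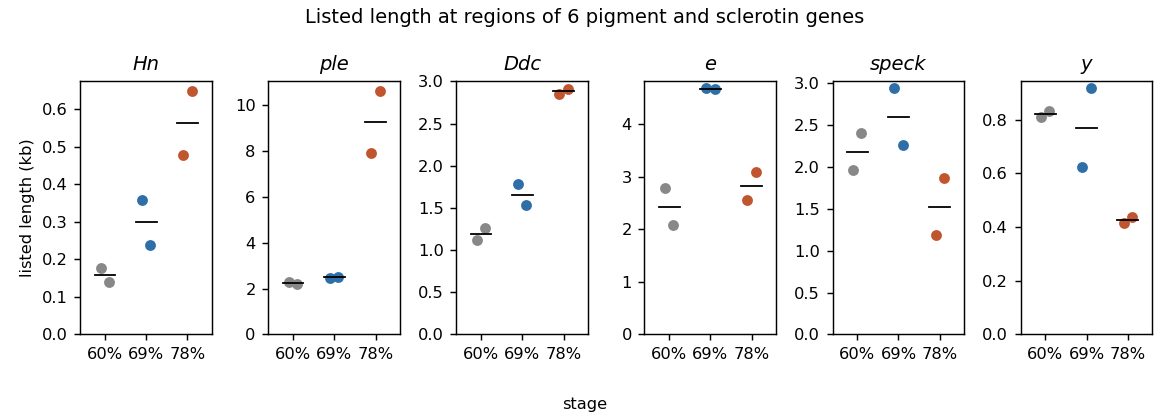
Listed length in kb over the regions assigned to 6 genes, in each library of 60%, 69% and 78% (points), with the mean of 2 libraries (line); each panel has its own axis from 0. The 78% libraries lie above both 69% libraries for Hn, ple and Ddc and below them for e, speck and y.

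Over all genes, few held several changed regions. Of the 11682 genes, 1638 had at least 1 opened region (14%) and 2082 at least 1 closed region (17.8%), and 495 had both. Only 15 genes had 5 or more opened regions, and 59 had 5 or more closed ones. CG17839 (3L, 14805136 to 14882224) opened at 14 of 100 regions with none closed, and its listed length was 23006 and 22523 bp at 69% and 33635 and 29793 bp at 78%. CG9932 (2L, 13021868 to 13060140) opened at 14 of 61 with 1 closed, with 9161 and 8662 bp at 69% and 11989 and 20181 bp at 78%. Both genes were longer in each 78% library than in either 69% library, but listed length rests on the same lists as the calls and gives no separate support. CG9701 (3L, 16733546 to 16739364) opened at 5 of 16 regions, and listed regions covered 9.69% and 11.0% of the gene at 69% and 33.8% and 51.1% at 78%.

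A separate set of genes with opened regions lay close to centromeres, where genes sit in heterochromatin. DIP-lambda, an immunoglobulin-domain receptor of nerve cell recognition (2R, 326768 to 705848), opened at 12 of 233 regions and closed at 4. The MAP kinase gene rl (2R, 1071462 to 1125927) opened at 6 of 59 and closed at 1, and CG40191 (2R, 1264140 to 1267747) opened at 7 of 23. The opened regions of CG40191 all lay outside the gene, 4019 to 9916 bp from it. The gene itself was covered over 75% and 73.4% at 69% and over 75.6% and 75.6% at 78%. Pzl, a Piezo-like channel gene near the base of 3R (2554162 to 3263582), opened at 6 of 41, with 5254 and 3728 bp listed at 69% and 6550 and 7655 bp at 78%. Taken over the 2.5 Mb next to the centromere of the 4 large arms, a window chosen after the values were seen, 110 of 1901 assessed regions opened (5.79%) and 47 closed (2.47%). The arms were not alike. On 2R 65 of 724 opened (8.98%), on 3L 13 of 172 and on 3R 10 of 103, but on 2L, which held the most regions in the window, 22 of 902 opened (2.44%) and 35 closed (3.88%). Beyond 7.5 Mb from the centromere, over the 4 arms, the shares were 3.11% and 4.04%.

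The tropomyosin genes were also longer at 78%. Tm1, which encodes a thin-filament protein (3R, 15278220 to 15308779), opened at 4 of 28 regions, and listed regions covered 24.7% and 21.1% of it at 69% and 34.6% and 47.2% at 78%. The neighbouring tropomyosin gene Tm2 opened at 2 of 6 with 1 closed, with 284 and 283 bp at 69% and 756 and 580 bp at 78%. Msp300, a nesprin that anchors nuclei in muscle, opened at 6 of 86 with 2 closed, but its 27323 and 28867 bp at 69% overlapped the 24618 and 33370 bp at 78%. On the list of muscle markers 18 of 430 regions opened (4.19%) and 19 closed (4.42%), against 3.09% and 4.41% over all genes. Of its 28 genes 6 were longer (21.4%) and 5 shorter (17.9%), against 12.2% and 19.7% of all genes. Summed listed length on that list was 129488 and 129478 bp at 69% and 111465 and 142271 bp at 78%. The flight muscle actin Act88F was listed in every library, with 1347 and 1315 bp at 69% and 1101 and 1683 bp at 78%. The part of muscle cells in the Tm1 gain was not tested.

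Ranked by the share of their regions that opened, among genes with at least 6 assessed regions, the first 4 were Ddc, CG5664 (3 of 6), ple and Rnf146 (3 of 7), a ubiquitin ligase gene. They were followed by 4 genes with 3 of 8, CG17883, clumsy, fid and AANATL3, an arylalkylamine N-acetyltransferase-like gene. AANATL3 had 959 and 585 bp listed at 69% and 1162 and 994 bp at 78%, so the stages did not overlap but lay close. Its opened regions all lay outside the gene, 576 to 3350 bp away. By the shorter of the 2 listed lengths at 78%, the first 5 opened regions included 1 in ftz-f1, the nuclear receptor that makes tissues competent for later ecdysone pulses (3L, 18792776 to 18793442), with no listed base at 69% and 599 and 662 bp at 78%. That region had been listed at 0% and 48% in both libraries and at 60% in 1. The others lay in CG9701, beside CG14551, in the aquaporin gene Prip (2R, 11441074 to 11441726, 423 and 479 bp at 78%) and at an unassigned site on 2R from 1020632 to 1021093. Those 4 had no listed base in any library before 78%.

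**Figure D3:**
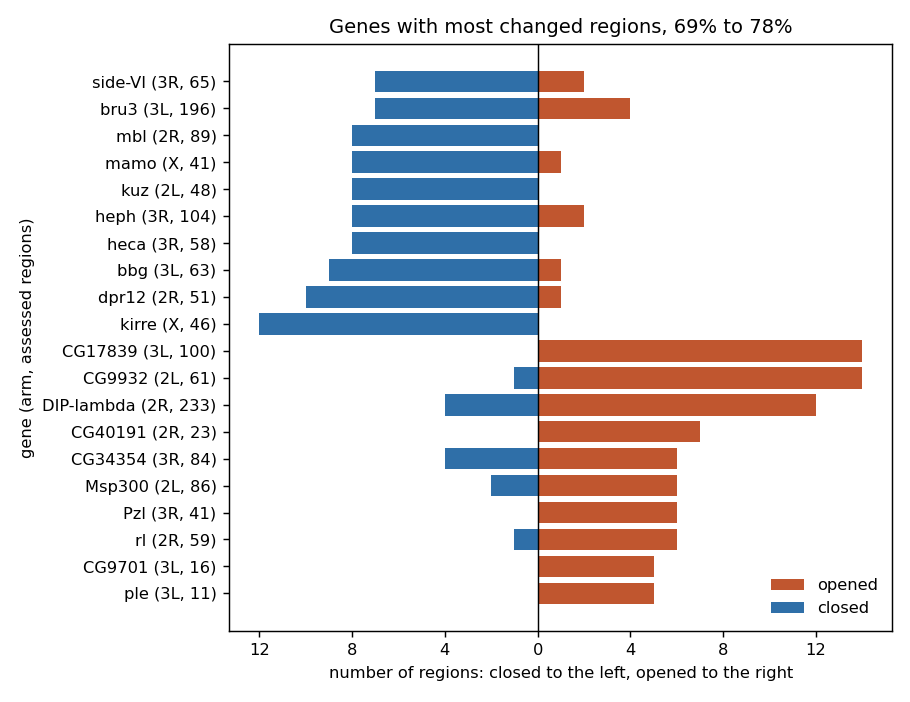
Number of opened (right, orange) and closed (left, blue) regions in the 10 genes that rank highest for each direction, with the arm and the number of assessed regions in brackets. CG17839 and CG9932 reach 14 opened regions each and kirre 12 closed ones.

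Ranking genes by length instead of by region calls, a rule added after the values were seen, took 248 genes that were longer in both 78% libraries and had a mean of at least 2000 bp at 78%. CG14969 on 3L came first, with 1387 and 1317 bp at 69% and 5657 and 5733 bp at 78%, a ratio of 4.21. It had no opened region because its 2 regions were listed at both stages. The gene spans only 3333119 to 3334978, so most of the length listed at 78% lay outside it. CG14969 was followed by ple, CG17883, qvr, which encodes a membrane-anchored neuronal protein, Tm1 and CG9701. The 2859 and 3313 bp of CG17883 at 78% also exceeded its span on 2R, 4671853 to 4673639, so part lay outside the gene. Further genes with ratios from 1.58 to 1.86 included RyR, the ryanodine receptor, alpha-Spec, a spectrin, and the motor genes Myo81F and unc-104.

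Genes with most closed regions included adhesion and signalling genes. The first was kirre on X, an immunoglobulin-domain adhesion protein known from myoblast fusion (2740384 to 3134532), with 12 of 46 regions closed, none opened, and 14987 and 14772 bp listed at 69% against 8287 and 9758 bp at 78%. After it came dpr12, an immunoglobulin-domain recognition gene (10 of 51), and bbg, a PDZ-domain protein of epithelial junctions (9 of 63). Both also opened at 1 region. The zinc finger gene mamo, the metalloprotease gene kuz that cleaves Notch, heca, the splicing regulator mbl and the RNA-binding gene heph had 8 each. There were 7 each in bru3 and side-VI. Regions also opened at mamo, heph and side-VI. This order is by count and not by share. At bru3 the 7 were of 196 assessed regions (3.57%), below the 4.41% of all genes, and 4 others opened. Listed length rests on the same lists as the calls, so for genes chosen by closed regions it gives no separate support. It was shorter in both 78% libraries for kirre, dpr12, bbg, mamo, kuz, heca and mbl. Of all genes 19.7% were shorter, and of genes on X, where kirre and mamo lie, 45.4%. For heph, bru3 and side-VI the stages overlapped. By share, among genes with at least 6 assessed regions, mdu came first (5 of 9), followed by 7 genes at 42.9%, which were tyn (6 of 14) and CG14111, CG34245, CG9593, eag, Evi5 and Mur2B (3 of 7 each). The closed regions of CG14111, CG34245 and CG9593 all lay outside the gene, up to 8842, 4257 and 6658 bp away.

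Individual genes of the wing hair and of the matrix over the apical surface, many on X, closed at several sites. Forked, encoded by f, bundles actin in bristles and wing hairs (X, 17232942 to 17280964). Its region from 17264858 to 17266000, listed in all 8 libraries up to 69%, had 1052 and 1056 bp at 69% and none at 78%, the longest listed stretch of all closed regions by the shorter of its 2 lengths. In all, 4 of 14 f regions closed, and listed length was 4205 and 4147 bp at 69% and 1538 and 1658 bp at 78%. The zona pellucida domain gene tyn on X, a component of the apical matrix, held the longest run of closed regions, 5 in succession from 174953 to 184112, and had 3357 and 3162 bp at 69% against 1645 and 1235 bp at 78%. The list of 24 genes called apical matrix also held integrin, metalloprotease and other genes from outside that matrix. Its shares therefore do not describe the apical matrix alone. On it, 25 of 386 regions closed (6.48%) and 8 opened (2.07%), against 4.41% and 3.09% over all genes. Of its genes 13 were shorter and none longer, against 19.7% and 12.2% of all genes. Of the 24 listed genes 8 are on X. Without them 10 of 325 regions closed (3.08%), below the 3.98% of all genes not on X, while 9 of 16 genes were shorter, against 16.2%. Among the list's genes from outside the apical matrix, the integrin alpha genes if and mew, both on X, closed at 3 of 17 and 4 of 14 regions. The giant dpy opened at 4 of 102 and closed at 2, with overlapping lengths.

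Among planar polarity, hair and bristle actin genes, 27 of 437 regions closed (6.18%) and 14 opened, and 10 of 28 genes were shorter and 3 longer. Over all genes 4.41% of regions closed and 3.09% opened, and 19.7% of genes were shorter and 12.2% longer. The opened share of the list lay near that of all genes. Without the 6 genes on X, 18 of 395 regions of the list closed (4.56%), near the 3.98% of all genes not on X. Of its 22 genes not on X, 6 were shorter, against 16.2% of all genes not on X. The cadherin gene ds closed at 5 of 58 regions, with 21802 and 21773 bp at 69% and 13404 and 18885 bp at 78%. The polarity gene pk opened at 3 and closed at 4 of 34. The kinase gene trc, which keeps wing hairs single, opened at 1 of 3 regions, with 182 and 127 bp at 69% and 497 and 282 bp at 78%. The myosin heavy chain gene zip opened at 3 of 24.

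Several cuticle assembly genes were shorter. The chitin deacetylase gene Cda5 (2L, 25402 to 65404) was covered over 20.5% and 24.4% of its length at 0%, 24.96% and 19.3% at 48%, 58.1% and 49.9% at 60%, 41.6% and 41.3% at 69%, and 23.2% and 23.5% at 78%. Coverage was thus highest at 60%, lower at each stage after it, and at 78% within the range of 0% and 48%. Of its 23 regions 3 closed outright. Listed length of exp, which organises chitin in tracheal tubes, was 13744 and 13012 bp at 69% and 7920 and 9468 bp at 78%, with 3 of 21 regions closed. On the list of chitin genes 10 of 207 regions closed (4.83%) and 4 opened (1.93%), and 11 of 33 genes were shorter and 4 longer. Among 106 cuticle protein genes 34 were shorter and 9 longer, with 14 of 323 regions closed (4.33%) and 9 opened (2.79%). The region shares of both lists lay near those of all genes, 4.41% closed and 3.09% opened, and 19.7% of all genes were shorter and 12.2% longer. The shorter ones included Twdlbeta (2 of 3 closed, 800 and 784 bp at 69%, 132 and 202 bp at 78%) and Cpr50Cb (2 of 13 closed). Cpr12A closed at its 1 region, which lay 1752 bp outside the gene. Regions opened at Ccp84Ae, Cpr47Ee and Cpr49Ac, each at 1, that of Cpr47Ee 561 bp outside the gene. At snu, a transporter gene needed for the cuticle's lipid barrier and chosen after its values were seen, no region closed, but listed length was 18879 and 18423 bp at 69% and 12110 and 13283 bp at 78%.

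Wing patterning and vein genes closed at 61 of 861 regions (7.08%) and opened at 13 (1.51%), and 21 of 47 genes were shorter and none longer. With the 7 genes on X left out, 45 of 790 regions closed (5.70%) and 17 of 40 genes were shorter, against 3.98% of regions and 16.2% of genes among all genes not on X. The T-box factor gene bi on X closed at 6 of 21 regions, with 9737 and 9685 bp at 69% and 5769 and 7135 bp at 78%. The receptor gene N (Notch), also on X, closed at 5 of 15, with 6212 and 5947 bp at 69% and 4031 and 4095 bp at 78%. The crossvein gene cv-c on 3R closed at 6 of 71, with 31803 and 30755 bp at 69% and 19635 and 25103 bp at 78%. None of these 3 genes overlapped between stages. The 13 opened regions lay in 9 genes, among them rn (2 of 31), salm (2 of 21) and the EGF receptor ligand vn (3 of 31), whose lengths overlapped or did not stay apart once scaled.

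Ecdysone response genes held both kinds of region. Eip74EF, an Ets factor induced by the hormone (3L, 17558672 to 17619325), opened at 3 of 41 regions, with 21603 and 20174 bp at 69% and 25084 and 25437 bp at 78%. The coactivator gene tai opened at 5 of 52 and closed at 2, and the nuclear receptor gene Eip75B opened at 3 of 48 and closed at 1, both with overlapping lengths. Hr38, a nuclear receptor needed for firm adult cuticle, closed at 3 of 26. Its region from 20708100 to 20708808 on 2L was listed in all 8 libraries up to 69%, with 590 and 640 bp at 69% and none at 78%. Closed regions also lay in Eip63E (4 of 57) and in Oatp74D, the ecdysone importer gene (3 of 18). Over the list, 33 of 601 regions closed (5.49%) and 20 opened (3.33%), and 9 of 26 genes were shorter and 2 longer. The opened share lay near the 3.09% of all genes, and the closed share compares with 4.41%. Of all genes 19.7% were shorter and 12.2% longer.

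The remaining lists gave small counts, to be read against 3.09% of regions opened and 4.41% closed over all genes. Cell cycle genes opened at 7 of 137 regions and closed at 3, with Cdk2 opened at 2 of 6. Ribosomal protein genes opened at 6 of 182 and closed at 2, with 12 of 86 genes longer and 12 shorter, against 12.2% and 19.7% of all genes. Cell death genes opened at 2 of 84 and closed at 3. Heat shock genes had no call in 39 regions. The dpr and DIP recognition genes opened at 31 of 920 and closed at 34. Neuron and sensory organ markers opened at 18 of 571 and closed at 26, with the GABA receptor gene Rdl opened at 3 of 34 and, on X, the potassium channel gene eag closed at 3 of 7 and futsch at 3 of 5. Glia markers opened at 2 of 116 and closed at 9, hemocyte markers at 4 and 8 of 145, trachea markers at 4 and 10 of 201, and fat body markers at 2 and 2 of 56. The neuronal gene elav, also on X, was listed over 2242 and 2149 bp at 69% and 1701 and 1454 bp at 78%. Of the 28 neuron and sensory organ genes 4 were longer and 7 shorter. Of the 22 not on X 3 were longer and 2 shorter, with a median ratio of 0.998, against 13.5% and 16.2% of all genes not on X. The glial gene repo was listed over 463 and 506 bp at 69% and 485 and 575 bp at 78%. The part of these cell types in the gains and losses above was not tested.

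The X chromosome stood apart from the other arms. Males carry a single X, whose genes are raised in output by the dosage compensation complex. Of 4293 assessed X regions 481 closed (11.2%) and 52 opened (1.21%), whereas on 2L, 2R, 3L and 3R together 2740 of 68660 closed (3.99%) and 2225 opened (3.24%). The closed share on those 4 arms ran from 3.90% to 4.09% and the opened share from 3.07% to 3.43%. Only regions listed by both 69% libraries could be called closed, and these made up more of the assessed regions on X. Of them, 481 of 3469 closed on X (13.9%) and 2740 of 36805 on the 4 arms (7.44%), a smaller contrast. On chromosome 4, 10 of 368 regions opened and 5 closed, and on Y 16 of 203 opened and none closed. X entries made up 7.89% and 7.60% of the lists at 69% and 6.78% and 5.91% at 78%, in number 5744 and 5706 against 4651 and 4772. The X share had been 9.49% and 9.74% at 0%, 11.9% and 10.6% at 48%, and 8.94% and 9.17% at 60%, so it was lower at each stage after 48% with no overlap between stages.

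Listed length per gene also differed between X and the arms. On X 628 of 1384 genes were shorter in both 78% libraries (45.4%) and 27 longer, against 1673 shorter (16.4%) and 1380 longer (13.5%) of 10210 genes on the 4 arms. The median ratio of listed length was 0.793 on X and 0.957 on the arms. Of the 15 genes shortened most among those with a mean of at least 2000 bp at 69%, a list made after the values were seen, 12 lay on X. They included CG42323 (6270 and 5969 bp at 69%, 1239 and 985 bp at 78%), CG13003 (5 of 14 closed), mew, mdu, f, tyn, the formin gene DAAM (3 of 13 closed, 5379 and 5630 bp at 69%, 2276 and 2646 bp at 78%) and the Wnt receptor gene fz3.

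The headers name a dated folder for each library, 202006 for both replicate 1 libraries and 202008 for both replicate 2 libraries. What the date marks is not stated. Among replicate 1 libraries 24.3% of the X regions listed at 69% were absent at 78%, against 26.9% on the 4 arms. Among replicate 2 libraries the shares were 22.7% and 19.3%. The loss was thus higher on X in replicate 2 only. The ratio of the closed share of assessed regions on X to that on the arms was 2.81 with both replicates. It was 1.48 without replicate 1 and 1.05 without replicate 2. The gain was low on X in both replicates. Of X regions listed at 78%, 4.88% in replicate 1 and 8.21% in replicate 2 had been absent at 69%, against 22.2% and 29.9% on the arms.

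**Figure D4:**
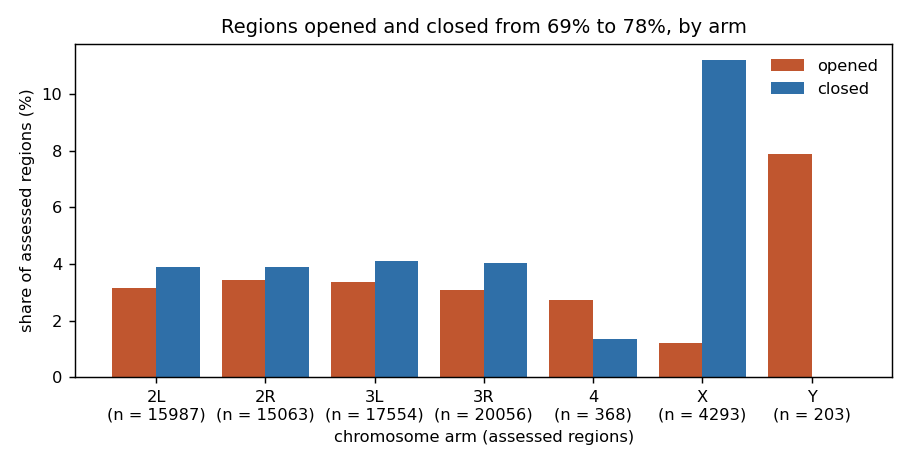
Share of assessed regions that opened (orange) and closed (blue) from 69% to 78% on each chromosome arm, with the number of assessed regions; no region closed on Y. X has the highest closed share, 11.2%, and the lowest opened share, 1.21%.

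Opened and closed regions differed in size and in history. Opened regions had a median merged width of 188 bp and closed ones 274 bp, against 322 bp for all assessed regions and 691 bp for those listed by all 4 libraries. Both kinds therefore lay among the short regions, and 77.6% of opened and 54.4% of closed regions were under 300 bp. The median of the shorter of the 2 listed lengths was 101 bp for both, close to the 100 bp window of the peak caller. A gene end lay within 500 bp of 20.2% of opened and 17.5% of closed regions, against 26.7% of all assessed regions and 36.2% of those listed by all 4 libraries.

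Most opened regions were absent from the earlier lists. Of the 2353, 1514 (64.3%) were in none of the 6 libraries of 0%, 48% and 60%, and only 22 were in all 6. Both libraries had listed 12.6% of them at 0%, 6.29% at 48% and 5.57% at 60%. Of the 3228 closed regions 701 (21.7%) were in no earlier library and 374 (11.6%) in all 6, and both libraries had listed 33.1% at 0%, 24.4% at 48% and 38.8% at 60%. Among all assessed regions the shares were 39.3%, 34.2% and 44.7%, with 30.9% in no earlier library. The earlier lists were made with various fragment lengths, from 50 to 208 bp, and at 60% the library with the short one listed 62.9% of closed and 14.6% of opened regions and the other 41.5% and 8.58%. Of the closed X regions both libraries had listed 48.6% at 48% and 60.9% at 60%, less than the 64.9% and 72.6% of all assessed X regions.

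**Figure D5:**
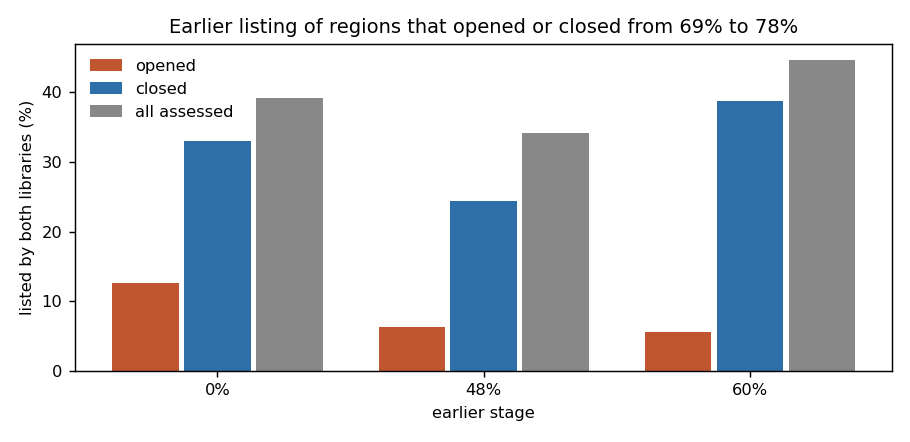
Share of opened (orange), closed (blue) and all assessed (grey) regions that both libraries of an earlier stage listed. Opened regions stay at or below 12.6% at each earlier stage, and closed regions reach 38.8% at 60%.

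The balance between opening and closing depended on the replicates. A rule that asks for both replicates keeps fewer regions than 1 library per stage does. With 1 library per stage, 15739 opened and 9430 closed without replicate 1, and 9612 and 12926 without replicate 2. The excess of closed regions thus held in replicate 1 and turned in replicate 2. In the lists that the authors made from pooled replicates 12681 opened and 8992 closed. The median log2 ratio of listed length per gene was -0.10 in bases and 0.03 relative to the total listed length, which is why genes were called longer or shorter only when both scales gave that direction.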

How the data were processed

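Regions came from the deposited BED lists, 1 for each library, which hold coordinates and a score that was 1 in every row, so no signal height was available and the values are the authors' listed positions. Per the file headers, the authors called regions with HOMER in its histone style, with a 100 bp window, a Poisson p-value threshold of 0.001, a local filter over 10 kb at 0.0001, a genome of 120 Mb and no input. Per the submitters' processing notes, Bowtie2, Picard, SAMtools, MACS2 and HOMER were used with dm6, and versions are not given in the sources used here. Tag totals are those of the headers and limit precision, since a deeper library can list weaker sites.

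The 10 D. melanogaster lists were merged into a union, and a library listed a region when they shared at least 1 bp. Regions were assigned to RefSeq gene spans of Release 6, the dm6 assembly, by overlap or within 10 kb. Listed length is the number of bases of a gene's regions that a library listed. Genes were named by rule: y, the 10 with most opened or closed regions, the 5 largest shares among genes with at least 6 regions, the 3 most changed of each list, the longest runs and the widest regions. Those added by value are marked. The members and the 18 lists were chosen with earlier results of these data known, and 18 list symbols matched no gene. Stage means were compared by exact permutation, two-sided. Single regions were called by the rule and not tested, since an exact test of 2 against 2 libraries cannot give a p below 0.333. No set test was made. The replicates are separate samples by their labels. Python 3.11.15, pandas 2.3.3 and numpy 2.4.6 were used, and the rule was tested on simulated data. Sequences and motifs were not analysed here.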

Additional observations from a re-analysis of the deposited data

How the results depend on the processing

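Alternatives that used 1 library or 1 pooled list per stage, the top of each list or wide regions alone moved the counts of 2353 opened regions and 3228 closed regions by over 1.5 times, since each changes by construction how many regions can be called. Leaving out each replicate gave 9612 to 15739 opened and 9430 to 12926 closed regions, a log2 ratio of opened to closed regions of -0.43 to 0.74 (main -0.46), an X to arm ratio of closed shares of 1.05 to 1.48 (main 2.81), a difference in listed regions per library (78% minus 69%) of -4193 to 5629 (main 718) and a difference in covered length per library of -3812480 to 165612 bp (main -1823430 bp). The authors' pooled lists gave 12681 opened and 8992 closed regions, a log2 ratio of 0.50 and an X ratio of 1.65. The first 10000 entries of each list gave 504 and 680, the first 50% gave 1157 and 1852, and regions of at least 300 bp gave 527 and 1471 with a log2 ratio of -1.48. The union of the 4 lists gave 5456 closed regions, for which the cause was not tested. With at least 50% of a region covered, at least 100 bp covered, 1 kb bins or equal numbers per library, and without X (the last chosen after seeing the data), both counts stayed within 1.5 times. The replicate block gave the same 2353 and 3228 regions by construction, because the rule already asks for both numbers to change. Same-numbered libraries of the 69% and 78% stages share a dated folder in the headers, so the pairing is by that date, and the block changed no call.

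The opened count of ple was 2 to 7 under the alternatives and that of Ddc 2 to 5, except that Ddc had none in the first 10000 entries. Hn had 1 to 3, and none in the first 10000 entries or the first 50%. For e there were 1 to 5 closed regions, with none in the first 10000 entries or among regions of at least 300 bp. Of the 123 named genes, 101 kept their excess of opened or closed regions without replicate 1 and 98 without replicate 2, and 10 and 13 turned. The lists hold no signal, so a site just under the caller's threshold cannot be told apart from a closed one.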
